A study of Mus musculus with 12 samples.

Results

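The genes described here encode the enzymes, membrane proteins and transcription factors of the lysosome, together with 5 genes of autophagy. The members were the rows of the deposited count table whose symbol was on a list of 40 such genes, and all 40 were among its 24062 genes. The counts came from kidney RNA of adult mice of a Pkd1 model, a mouse model of polycystic kidney disease, in a study whose title concerns IRF5 made by kidney macrophages. Per the labels' protocols, all mice, with or without Cre recombinase, were induced with tamoxifen and operated at an age of 6 to 8 weeks. Tissue was taken 4 weeks after surgery. Unilateral nephrectomy (UNx) removes 1 kidney, and the sham operation leaves 2. The 4 groups, of 3 libraries each, were UNx CrePlus, UNx CreMinus, sham CrePlus and sham CreMinus. The labels give neither the promoter that drives Cre nor the Pkd1 allele, nor whether the mice without Cre carried that allele.

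Lysosomes are acidic compartments in which hydrolases break down proteins, glycans and lipids that arrive by endocytosis or by autophagy. Autophagy wraps cytoplasm in a double membrane, built with LC3 and GABARAP family proteins, and delivers it to the lysosome. In the kidney the proximal tubule takes up filtered protein and is rich in lysosomes. TFEB, TFE3 and MITF, the MiT/TFE transcription factors, raise many lysosomal genes together when mTORC1, the nutrient-sensing kinase at the lysosomal surface, is low, and folliculin (Flcn) takes part in that control.

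Library totals were 18914300 to 22480895 counts in 8 libraries and 41699032 to 42785476 in 4, namely replicate 1 of UNx CreMinus and every UNx CrePlus library. The labels give no sex. Xist, transcribed from the inactive X chromosome, had 6 to 28 counts in 5 libraries and 10812 to 23642 in the other 7, while 4 Y-linked genes summed to 3570 to 7345 and to 0 to 12 counts. The 5 libraries read as male were UNx CrePlus replicates 1 and 2, UNx CreMinus replicate 1 and replicate 3 of both sham groups. Pkd1 measured 45.5, 39.6 and 45.1 CPM (counts scaled to the library's size) in UNx CrePlus, 49.4, 49.3 and 71.6 CPM in UNx CreMinus, 64.1, 46.1 and 45.9 CPM in sham CrePlus and 76.8, 60.3 and 57.8 CPM in sham CreMinus kidneys. All 3 UNx CrePlus libraries lay below all 3 UNx CreMinus libraries, and the sham groups overlapped. CrePlus over CreMinus, the log2 fold change was -0.39 ± 0.18 (SE, adjusted p = 0.482 with edgeR) in UNx and -0.32 ± 0.18 (adjusted p = 1.00) in sham kidneys. The count covers the whole gene, and the labels do not give the deleted part. Summed markers of the proximal tubule were at 19490 to 56264 CPM over the 12 libraries.

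MiT/TFE factors bind an E-box within the CLEAR element, whose core is TCACGTGA, a palindrome that contains the E-box CACGTG and was described from lysosomal gene promoters such as these. RefSeq promoters of GRCm38.p6, from 250 bases before to 50 after each start, were found for 35 of the 40 members, and both strands were read. The core was in 5 of the 35 genes (14.3%) and in 1.12% of 27025 genes with a promoter. CACGTG, which includes every core match, was in 11 of 35 (31.4%) against 8.09% of all genes, and TCATGTGA, the M-box preferred by MITF, was in 3 of 35 (8.57%) against 1.15%. The windows around the core are shown for the 5 genes because these are the members that hold the whole core. They give 20 bases to each side with the core in capitals, 5′ to 3′ on the gene's strand. Where a promoter held the core at more than 1 place, the site farther upstream is shown.
Mcoln1: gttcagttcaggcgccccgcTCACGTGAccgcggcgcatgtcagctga
Ctsd: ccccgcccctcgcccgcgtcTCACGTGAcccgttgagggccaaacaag
Cln3: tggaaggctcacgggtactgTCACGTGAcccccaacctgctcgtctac
Ctsa: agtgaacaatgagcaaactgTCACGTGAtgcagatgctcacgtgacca
Gla: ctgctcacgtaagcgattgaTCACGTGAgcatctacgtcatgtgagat
The window of Mcoln1, the lysosomal calcium channel mucolipin 1, lies at chr8:3500453-3500500 (plus strand). That of Ctsd, the aspartic protease cathepsin D, lies at chr7:142387899-142387946 (minus strand). The window of Cln3, a lysosomal membrane protein mutated in juvenile Batten disease, lies at chr7:126583331-126583378 (minus strand), and the window of Ctsa, protective protein and cathepsin A, at chr2:164833740-164833787 (plus strand). The window of Gla, α-galactosidase A, lies at chrX:134601206-134601253 (minus strand). A match describes these letters only, and no binding was measured. On the log2 scale, CrePlus over CreMinus in UNx kidneys was -0.03 for Mcoln1, 0.14 for Ctsd, -0.30 for Cln3 (-0.12 with a term for sex), 0.03 for Ctsa and 0.01 for Gla, so these 5 genes did not share a direction.

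The members were abundant, and their levels differed over several orders of magnitude. They took 1.19 to 1.42% of a library's counts, and Psap and Lamp1 alone held 24.6 to 32.3% of the members' counts. Per kilobase of exon, the mean level over the 12 libraries was highest for Psap, the precursor of the saposins that present sphingolipids to their hydrolases, at 742 CPM per kb. Lamp1, a main glycoprotein of the lysosomal membrane, followed at 596 CPM per kb, then Gabarapl1, an LC3-like autophagosome protein, at 549 and Ctsd at 329. Neu1, the lysosomal sialidase, was at 176 CPM per kb, Ctsb at 153 and Sqstm1, the autophagy receptor p62, at 143. The length joined all annotated exons of a gene, and the order depends on it. In CPM alone, Lamp2 (950) and Ctsb (925) lay above Ctsd (773). The MiT/TFE factors were among the lowest, with 4.39 CPM per kb for Tfeb, 3.61 for Tfe3 and 3.29 for Mitf. Npc1, the lysosomal cholesterol exporter, was at 2.61 CPM per kb and Gla at 2.02. Gpnmb, a transmembrane glycoprotein of lysosome-rich macrophages and a MITF target, was last at 0.051 CPM per kb and was the 1 member left out by the filter on low counts, so 39 members were tested.

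Most members varied little between the 12 kidneys. The highest library was less than 1.5 times the lowest for 26 of the 39 tested members, with a median ratio of 1.39, and more than 2 times for 2. The narrowest were Becn1, the beclin 1 subunit of the autophagy-initiating lipid kinase complex, at 1.15 times and Ctsl at 1.16 times. The widest were Glb1, lysosomal β-galactosidase, at 2.75 times and Lipa, lysosomal acid lipase, at 2.13 times. Libraries were not stranded, and 43.9% of the annotated exon bases of Becn1 overlap Cntd1 on the other strand. The largest such overlap with 1 gene was 26.8% for Ctsl, 28.3% for Gabarapl1, 21.6% for Sgsh, 17.3% for Sqstm1, 12.8% for Hexa, 12.8% for Ctsb, 10.5% for Ctsa, 9.31% for Lamp1, 7.65% for Cln3 and 3.35% for Idua. In Ctsd, 34.4% overlaps a gene model on its own strand. How reads in such stretches were counted could not be read from the files, and the levels of these genes are uncertain to that extent.

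**Figure D1:**
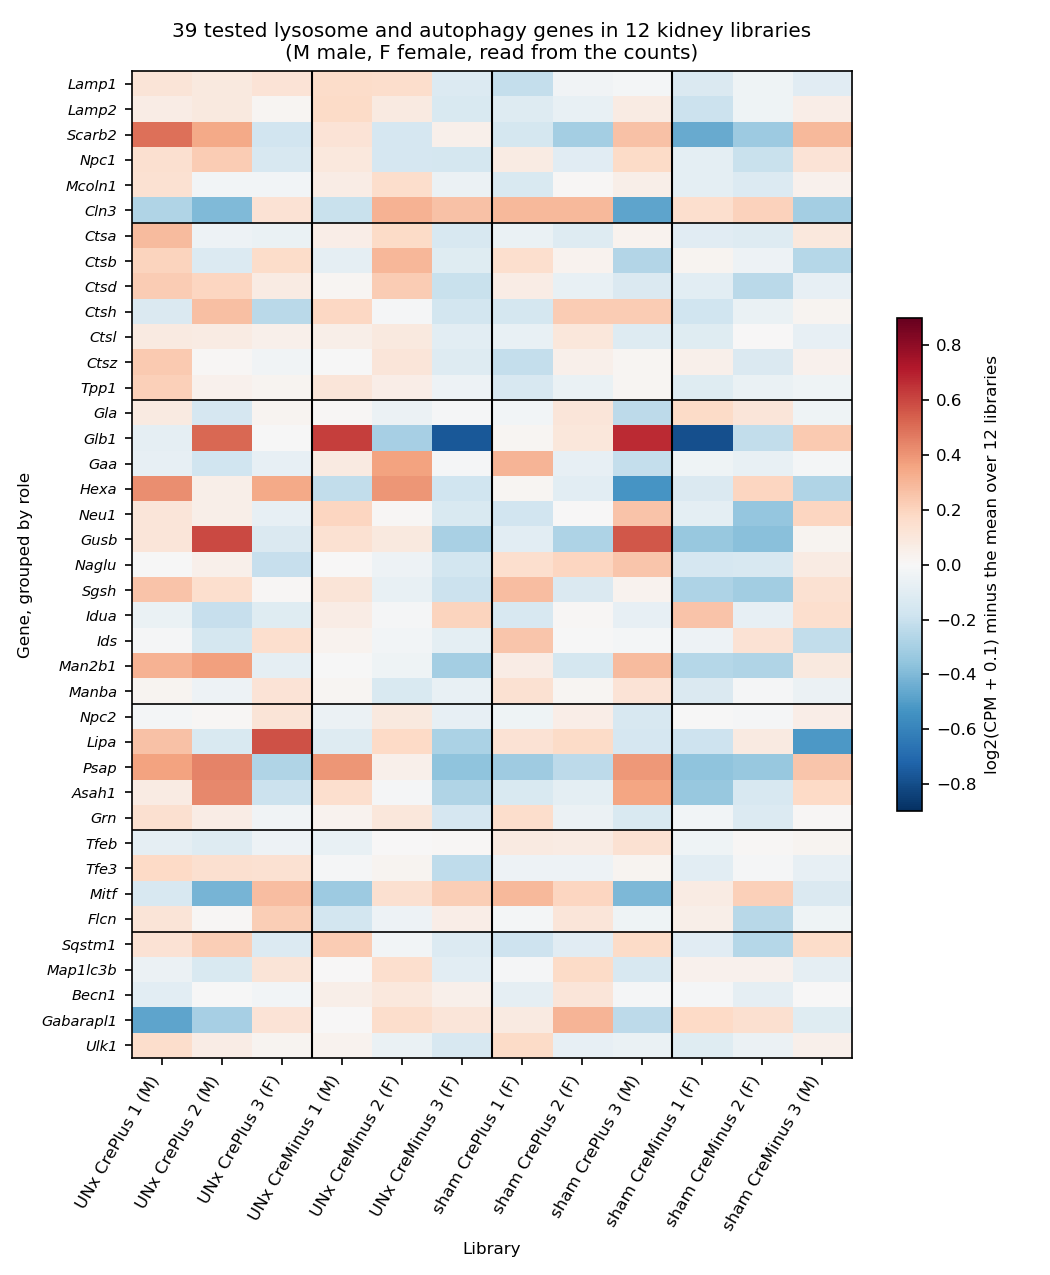
The 39 tested members (rows, grouped by role) in the 12 libraries (columns, by group, M male and F female as read from the counts), coloured by log2(CPM + 0.1) minus the gene's mean over the libraries. Columns of the same sex look alike for Psap, Scarb2, Glb1, Cln3 and Mitf, and Glb1 has the widest range, 2.75 times between its lowest and highest library.

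No tested member passed the threshold for Cre status in UNx kidneys. With edgeR's quasi-likelihood test and Benjamini-Hochberg adjustment over 14970 genes, 0 of 39 members had an adjusted p under 0.05, against 21 of all genes tested (0.14%). DESeq2 also called 0 members, and 1 member (2.56%) had an unadjusted p under 0.05 with edgeR, against 10.7% of all genes. The members' median log2 fold change, CrePlus over CreMinus, was 0.05, with 29 of 39 above 0, and the median over all genes was -0.01. All 3 libraries of each group stood apart for 4 members, 1 above and 3 below, which is 10.3% of the members and 15.8% of all genes. The 1 above was Tfe3 and the 3 below were Idua, Gaa and Becn1.

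Tfe3 (chrX:7762530-7775202, GRCm38) encodes the MiT/TFE factor of that name. It measured 37.7, 36.9 and 36.7 CPM in UNx CrePlus, 33.1, 33.9 and 28.4 CPM in UNx CreMinus, 32.3, 32.4 and 33.9 CPM in sham CrePlus and 31.2, 33.0 and 31.7 CPM in sham CreMinus kidneys. The 3 UNx CrePlus libraries were the 3 highest of the 12. With Cre, its log2 fold change in UNx kidneys was 0.22 ± 0.08 (SE), with an adjusted p of 0.386, and it was 0.13 without UNx CreMinus replicate 3, the lowest library. Tfeb, its close relative, measured 23.5, 22.9 and 24.1 CPM in UNx CrePlus, 23.8, 24.9 and 25.1 CPM in UNx CreMinus, 26.3, 26.2 and 27.4 CPM in sham CrePlus and 24.1, 25 and 25.2 CPM in sham CreMinus kidneys. Its fold change with Cre was -0.07 ± 0.07 in UNx kidneys (adjusted p = 0.781) and 0.10 ± 0.07 in sham kidneys (adjusted p = 1.00). Mitf measured 18.1, 15 and 24.4 CPM in UNx CrePlus, 16, 22.2 and 23.5 CPM in UNx CreMinus, 24.5, 23.0 and 15.2 CPM in sham CrePlus and 21.1, 23.3 and 18.4 CPM in sham CreMinus kidneys, and the groups overlapped in every comparison. Flcn, whose product restrains these factors, averaged 61.8 ± 4.61 CPM in UNx CrePlus and 55.0 ± 4.29 CPM in UNx CreMinus kidneys (SD, n = 3 each), a log2 fold change of 0.17 ± 0.10 with an adjusted p of 0.575.

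Of the 12 glycosidases and sulfatases, 10 had a fold change above 0 with Cre in UNx kidneys, and none passed the adjusted test. Man2b1, lysosomal α-mannosidase, measured 232, 240.2 and 176 CPM in UNx CrePlus and 185, 181 and 150.5 CPM in UNx CreMinus kidneys. The groups overlapped, since the female UNx CrePlus library was below 2 UNx CreMinus libraries. Its log2 fold change was 0.32 ± 0.16 with an adjusted p of 0.504, and 0.09 in female libraries alone. Idua, the α-L-iduronidase that trims heparan and dermatan sulfate, measured 29.5, 26.6 and 28.4 CPM in UNx CrePlus and 32.2, 30.5 and 35.3 CPM in UNx CreMinus kidneys. The groups did not overlap, and the log2 fold change was -0.21 ± 0.10 with an adjusted p of 0.478. Gaa, the acid α-glucosidase that degrades glycogen, averaged 122 ± 5.21 CPM in UNx CrePlus and 146 ± 19.9 CPM in UNx CreMinus kidneys (SD, n = 3 each), a log2 fold change of -0.26 ± 0.13 (adjusted p = 0.522). Becn1 averaged 112 ± 3.69 CPM in UNx CrePlus and 120.0 ± 2.16 CPM in UNx CreMinus kidneys, a log2 fold change of -0.10 ± 0.07 (adjusted p = 0.646).

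No member of the remaining roles passed the adjusted test with Cre in UNx kidneys, and their medians ran from -0.05 for autophagy to 0.15 for lipid handling. The 7 cathepsins and other peptidases had a median log2 fold change of 0.05 and ranged from -0.03 for Ctsh to 0.14 for Ctsd. The 6 membrane proteins had a median of 0.02, with -0.30 for Cln3 and 0.24 for Scarb2, the receptor that carries β-glucocerebrosidase to the lysosome. All 5 genes of lipid handling were above 0, with a median of 0.15, and Lipa was the highest at 0.32 with an adjusted p of 0.616. With a term for sex in the model, Cln3 was at -0.12 and Scarb2 at 0.05, and Man2b1 at 0.21. Other members moved away from 0 in that fit. Lipa was at 0.41 (adjusted p = 0.281 with edgeR), and Hexa went from 0.25 to 0.37 (adjusted p = 0.342). Of the 5 autophagy genes, Gabarapl1 was at -0.29, and Ulk1, the kinase that starts autophagy, was at 0.14. Sqstm1 was at 0.05, with 519.5, 554 and 436 CPM in UNx CrePlus, 558, 467 and 437 CPM in UNx CreMinus, 418, 444 and 536 CPM in sham CrePlus and 442, 399 and 532 CPM in sham CreMinus kidneys. Its high libraries were the male ones in every group. Of the 14 macrophage and myeloid markers, 8 had an unadjusted p under 0.05 in this comparison and 0 passed the adjusted test, with a median log2 fold change of 1.15. Their part in the members' values was not tested.

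**Figure D2:**
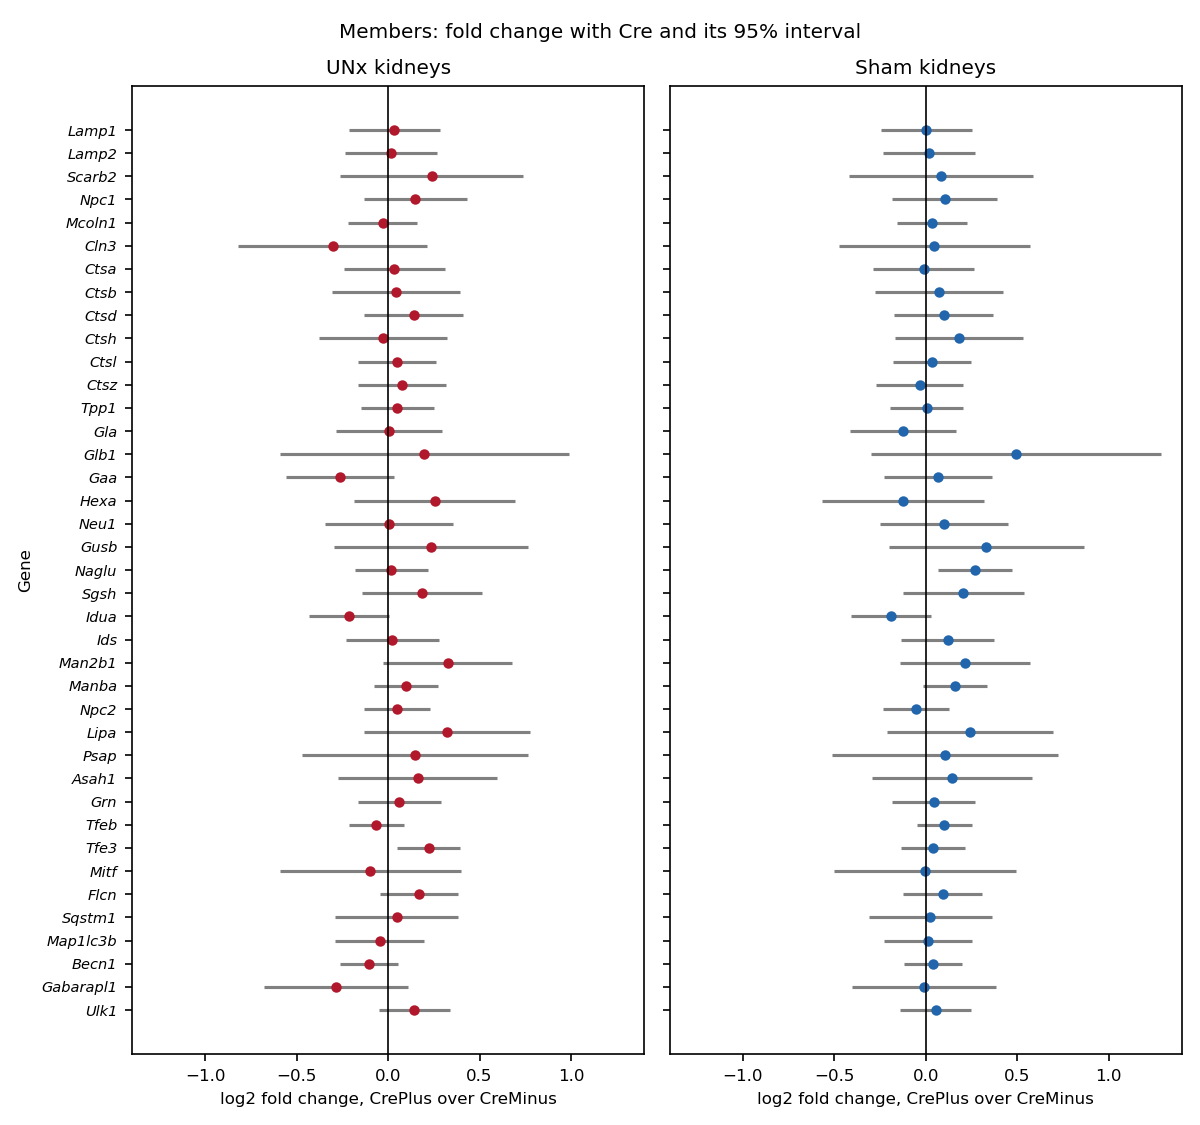
Log2 fold change of each tested member, CrePlus over CreMinus, in UNx kidneys (left) and in sham kidneys (right), as points with 95% intervals from the edgeR fit. Most points lie within 0.3 of 0, and Glb1 has the widest interval, with an SE of 0.36 in both.

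In sham kidneys no tested member passed the threshold for Cre status either. With edgeR 0 of 39 members were called, against 4 of all genes (0.0267%). DESeq2 called 0 members, and 1 member (2.56%) had an unadjusted p under 0.05, against 4.05% of all genes. The median log2 fold change was 0.05, with 31 of 39 above 0, against 0.00 over all genes. The groups stood apart for 3 members, all above, or 7.69% of members against 8.16% of all genes. These were Naglu, Manba and Tfeb. Naglu, the α-N-acetylglucosaminidase of heparan sulfate breakdown, measured 60.4, 62.1 and 64.7 CPM in sham CrePlus and 48.9, 49.3 and 57.2 CPM in sham CreMinus kidneys. In UNx kidneys it measured 54.2, 56.3 and 47.2 CPM with Cre and 54.4, 52.8 and 48.6 CPM without, so the sham CrePlus libraries were the 3 highest of the 12. Its log2 fold change with Cre in sham kidneys was 0.27 ± 0.09 (adjusted p = 1.00). Manba, lysosomal β-mannosidase, measured 149, 137 and 148 CPM in sham CrePlus and 124, 134 and 131 CPM in sham CreMinus kidneys, a log2 fold change of 0.16 ± 0.08 (adjusted p = 1.00). Idua measured 27.8, 30.9 and 29.2 CPM in sham CrePlus and 36.8, 29.2 and 34.1 CPM in sham CreMinus kidneys. These groups overlapped, with a log2 fold change of -0.19 ± 0.10 (adjusted p = 1.00), and -0.12 without sham CreMinus replicate 1. By role, the median was 0.14 for the 12 glycosidases and sulfatases, 0.10 for lipid handling, 0.04 for membrane proteins and 0.03 for cathepsins and other peptidases. The 14 macrophage markers had a median of -0.14 here.

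Averaged over both operations, edgeR called 0 of 39 members, against 78 of all genes (0.521%), and DESeq2 called 0 members. At an unadjusted p under 0.05 there were 5 members (12.8%, against 11.8% of all genes), of which 4 are glycosidases. They were Idua at -0.20 ± 0.07 (adjusted p = 0.298), Man2b1 at 0.27 ± 0.11 (adjusted p = 0.393), Manba at 0.13 ± 0.06 (adjusted p = 0.406) and Naglu at 0.14 ± 0.06 (adjusted p = 0.42). The other was Tfe3 at 0.13 ± 0.06 (adjusted p = 0.4). Man2b1 measured 195, 167 and 226 CPM in sham CrePlus and 156, 155 and 198 CPM in sham CreMinus kidneys, groups that overlapped. Its averaged value was 0.16 in female libraries alone, and that of Tfe3 was 0.08 without UNx CreMinus replicate 3. All 7 cathepsins and other peptidases lay above 0 in this average, with a median of 0.04.

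**Figure D3:**
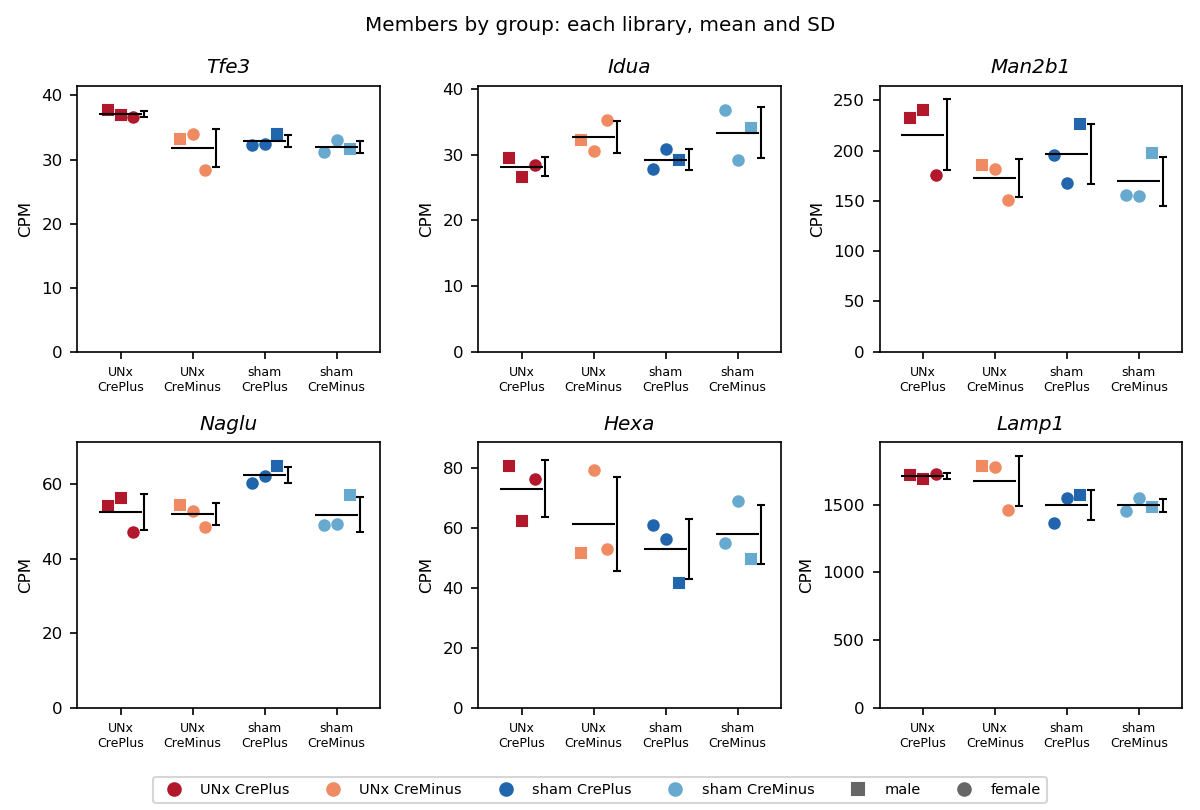
CPM of 6 members in each library (points, squares male and circles female as read from the counts) with the group mean as a line and the SD as a bar, for UNx CrePlus, UNx CreMinus, sham CrePlus and sham CreMinus kidneys. Tfe3 stands at 36.7 to 37.7 CPM in UNx CrePlus kidneys, above the other 9 libraries, and Naglu at 60.4 to 64.7 CPM in sham CrePlus kidneys.

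No tested member passed the threshold for removal of 1 kidney. In CrePlus kidneys, edgeR called 0 of 39 members and 0 of all genes (0%) for UNx against sham. DESeq2 called 0 members, and 4 members (10.3%) had an unadjusted p under 0.05, against 6.83% of all genes. The groups stood apart for 7 members, 5 above and 2 below, which is 17.9% of the members and 9.78% of all genes. Above were Lamp1, Ctsd, Tpp1, Hexa and Tfe3, and below were Naglu and Tfeb. Hexa, the α subunit of β-hexosaminidase that degrades GM2 ganglioside, measured 80.7, 62.6 and 76.6 CPM in UNx CrePlus and 61.2, 56.4 and 41.8 CPM in sham CrePlus kidneys. Without Cre it measured 51.7, 79.5 and 53.2 CPM in UNx and 55.1, 69.0 and 49.8 CPM in sham kidneys, groups that overlapped. The log2 fold change in CrePlus kidneys was 0.46 ± 0.20 (adjusted p = 0.724), the farthest from 0 among the members, and it was 0.82 in a fit with a term for depth. Naglu stood at -0.25 ± 0.09 and Tfeb at -0.18 ± 0.07 on the same scale (adjusted p = 0.692 for both). Tfe3 was at 0.18 ± 0.08 (adjusted p = 0.725). Naglu was at -0.37 in female libraries alone, and Tfeb at -0.11 with the depth term. All 3 UNx CrePlus libraries were deep and all 3 sham CrePlus libraries were not, and the term for depth rested on UNx CreMinus replicate 1 alone.

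In CreMinus kidneys, edgeR called 0 of 39 members and 0 of all genes (0%) for UNx against sham, DESeq2 called 0 members, and 0 had an unadjusted p under 0.05, against 1.3% of all genes. The groups stood apart for 2 members, both above, or 5.13% of members against 4.86% of all genes. These were Gaa and Becn1. Gaa measured 139, 168 and 130.4 CPM in UNx CreMinus and 128, 125 and 129.6 CPM in sham CreMinus kidneys, a log2 fold change of 0.19 ± 0.13 (adjusted p = 1.00). Mcoln1 measured 60.4, 64.6 and 55.7 CPM in UNx CreMinus and 54.2, 53.0 and 59.2 CPM in sham CreMinus kidneys, a log2 fold change of 0.12 ± 0.09 (adjusted p = 1.00), and the groups overlapped. Without UNx CreMinus replicate 2 these values were 0.08 for Gaa and 0.07 for Mcoln1. All 7 cathepsins and other peptidases lay above 0, with a median of 0.08, and 6 of 7 did in CrePlus kidneys, with a median of 0.12.

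Lamp1 (chr8:13159161-13175338, GRCm38) had the smallest unadjusted p for surgery averaged over Cre status. It measured 1720, 1687 and 1727 CPM in UNx CrePlus, 1782, 1775 and 1461 CPM in UNx CreMinus, 1368, 1551 and 1569 CPM in sham CrePlus and 1454, 1548 and 1479 CPM in sham CreMinus kidneys. The UNx libraries were higher but for UNx CreMinus replicate 3, which lay among the sham libraries. The log2 fold change was 0.18 ± 0.08 averaged over Cre status, with an adjusted p of 0.878, 0.19 in CrePlus and 0.16 in CreMinus kidneys. In CreMinus kidneys it was 0.25 without UNx CreMinus replicate 3 and 0.11 in female libraries alone. Ctsd measured 902, 878 and 808 CPM in UNx CrePlus, 779, 900.2 and 669 CPM in UNx CreMinus, 807, 734 and 704 CPM in sham CrePlus and 718, 649.8 and 730.4 CPM in sham CreMinus kidneys, an averaged log2 fold change of 0.18 ± 0.09 (adjusted p = 0.885). Tpp1, tripeptidyl peptidase 1, averaged 309 ± 23.0 CPM in UNx CrePlus, 299 ± 16.4 CPM in UNx CreMinus, 278 ± 15.5 CPM in sham CrePlus and 277 ± 7.05 CPM in sham CreMinus kidneys (SD, n = 3 each), with 0.13 ± 0.06 (adjusted p = 0.889). For this averaged comparison edgeR called 0 members and 0 of all genes (0%), DESeq2 called 0 members, and 1 member (2.56%) had an unadjusted p under 0.05, against 5.66% of all genes. With a term for depth the averaged value was 0.09 for Lamp1 and 0.06 for Tpp1. The members' median was 0.06, with 28 of 39 above 0, against 0.00 over all genes.

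No tested member passed the test of whether the response to Cre differed between operations. The interaction test of edgeR called 0 of 39 members and 0 of all genes (0%), DESeq2 called 0 members, and 0 members had an unadjusted p under 0.05, against 1.85% of all genes. The 3 smallest p-values belonged to Naglu at -0.25 ± 0.13, Tfeb at -0.17 ± 0.10 and Gaa at -0.32 ± 0.19 on the log2 scale, all with an adjusted p of 1.00. In female libraries alone Naglu was at -0.42, and without sham CrePlus replicate 1 Gaa was at -0.17.

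The intervals show what sizes of change these libraries leave possible. The median SE of a member's log2 fold change was 0.12 within UNx or sham kidneys, against 0.17 over all genes. For Cre in UNx kidneys, the 95% interval lay within 1 log2 unit of 0 for all 39 tested members and within 0.5 for 26. For Cre in sham kidneys these numbers were 38 and 27, with Glb1 the exception to the first. For surgery they were 39 and 29 in CrePlus kidneys and 39 and 31 in CreMinus kidneys. In a bulk sample, fewer cells of a type and less RNA per cell cannot be told apart.

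Gpnmb (chr6:49036518-49058182, GRCm38) was the member with the widest difference between groups, at very low counts. It had 49, 15 and 16 counts in UNx CrePlus, 2, 3 and 3 in UNx CreMinus, 29, 9 and 2 in sham CrePlus and 1, 0 and 0 in sham CreMinus kidneys. Within each operation, all 3 CrePlus libraries were above all 3 CreMinus libraries in CPM. In UNx kidneys the summed counts were 80 with Cre and 8 without, a rate ratio of 6.305 after library scaling (exact 95% interval 3.05 to 15.1). In sham kidneys they were 40 with Cre and 1 without, a rate ratio of 40.0 (6.78 to 1620). These intervals cover counting error only. In an edgeR fit with no filter on low counts, over 19749 genes, the log2 fold change with Cre was 2.53 ± 0.88 in UNx kidneys (adjusted p = 0.447), and 1.32 in female libraries alone. In that fit it was 4.92 ± 1.25 in sham kidneys (adjusted p = 0.8), a value that depends on the prior count, and 3.73 ± 0.76 averaged over operations (adjusted p = 0.0723). Among the alternatives that kept the gene, the averaged test passed without sham CrePlus replicate 3 (adjusted p = 0.0355) and gave adjusted p-values of 0.0608 to 0.204 in the others.

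Gpnmb marks macrophages as well as other cells, so the summed levels of the 14 of 15 macrophage and myeloid markers found in the table are given beside it. They were 327, 365 and 185 CPM in UNx CrePlus, 158, 184 and 169 CPM in UNx CreMinus, 269.6, 159 and 196 CPM in sham CrePlus and 171, 143 and 376 CPM in sham CreMinus kidneys. The highest sum was in sham CreMinus replicate 3, where Gpnmb had 0 counts. The 10 tubular injury genes summed to 4305, 2819.6 and 3719.7 CPM in UNx CrePlus, 1457, 3806 and 3105 CPM in UNx CreMinus, 3933, 2894 and 1074 CPM in sham CrePlus and 2524, 2512 and 1253 CPM in sham CreMinus kidneys. In both CrePlus groups, replicate 1 was the highest of its group in this sum and in Gpnmb. In sham CrePlus kidneys it was also the highest in the macrophage sum, and in UNx CrePlus kidneys replicate 2 was. UNx CreMinus replicates 2 and 3 had higher injury sums than UNx CrePlus replicate 2, with fewer Gpnmb counts. No marker of either list was at 0 in every library, and their part in the difference was not tested.

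**Figure D4:**
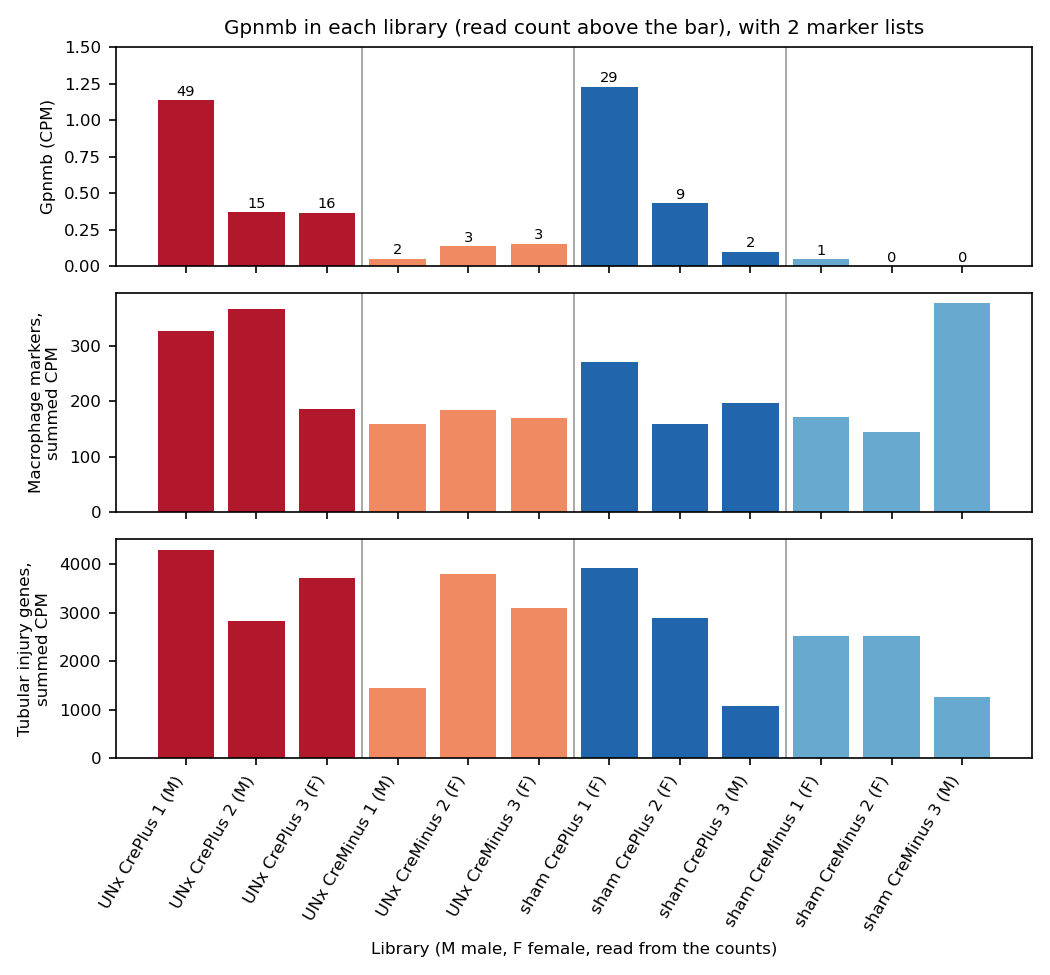
Gpnmb in CPM (top, read counts above the bars), summed macrophage markers (middle) and summed tubular injury genes (bottom) in each library, with UNx CrePlus, UNx CreMinus, sham CrePlus and sham CreMinus kidneys from left to right. Gpnmb has 49 and 29 counts in replicate 1 of the CrePlus groups and 0 to 3 in the 6 CreMinus libraries.

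The clearest pattern among the members followed the sex of the mice as read from the counts. Sex here is a reading of the counts and not a group of the study. With a term for sex beside the 4 group means, added after the data were examined, edgeR called 13 of 39 members (33.3%) between male and female kidneys, against 3051 of all genes (20.4%). In male kidneys 10 were higher and 3 were lower. Male and female libraries stood apart for 9 members (23.1%), 6 above and 3 below, against 9.43% of all genes. Of the 5 male libraries 3 were deep, and of the 7 female libraries 1 was. With a term for depth in the model 10 of the 13 were called, without Glb1, Neu1 and Naglu, against 13.5% of all genes. Depth differed within UNx CreMinus only, so that term rested on its replicate 1, a male library. The fit nearly repeated the one without that library, with Cln3 at -0.571 and -0.572 and Psap at 0.649 in both. Its sex values therefore rest on UNx CrePlus and both sham groups, in each of which male and female libraries had like depth.

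Psap (chr10:60277628-60302600, GRCm38), the most abundant member, had 2354 to 2698 CPM with a median of 2603 in the 5 male libraries and 1544 to 2049 CPM with a median of 1586 in the 7 female libraries. The sexes did not overlap, and the log2 fold change, male over female, was 0.62 ± 0.09 (adjusted p = 0.000696). Asah1, the acid ceramidase that works on lipids presented by a saposin, had 117 to 150.2 CPM with a median of 126 in male and 87.6 to 111 CPM with a median of 100.4 in female libraries, with 0.41 ± 0.08 (adjusted p = 0.00463). The other 3 genes of lipid handling, Lipa, Npc2 and Grn, did not pass. Among membrane proteins, Scarb2 had 36.2 to 47.0 CPM with a median of 40.7 in male and 24.3 to 34.5 CPM with a median of 29.6 in female libraries, a log2 fold change of 0.49 ± 0.08 (adjusted p = 0.00237). Npc1 was also higher in male kidneys (0.26 ± 0.06, adjusted p = 0.00908).

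Cln3 (chr7:126571207-126585817, GRCm38) went the other way. It had 18 to 21.8 CPM with a median of 20.2 in male and 27.4 to 31.2 CPM with a median of 30.1 in female libraries. The sexes did not overlap in any group, and the log2 fold change was -0.55 ± 0.07 (adjusted p = 0.000225), the smallest p among the members. Of the 5 members with the CLEAR core, Cln3 alone passed, and Mcoln1 (0.09), Ctsd (0.02), Ctsa (0.14) and Gla (-0.11) did not. Mitf had 15 to 18.4 CPM with a median of 16 in male and 21.1 to 24.5 CPM with a median of 23.3 in female libraries, a log2 fold change of -0.50 ± 0.08 (adjusted p = 0.00142). Its relatives Tfeb at -0.01 ± 0.05 (adjusted p = 0.939) and Tfe3 at 0.04 ± 0.06 (adjusted p = 0.669) did not pass.

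In autophagy, Sqstm1 and Gabarapl1 passed in opposite directions. Sqstm1 had 519.5 to 558 CPM with a median of 536 in male and 399 to 467 CPM with a median of 437 in female libraries, a log2 fold change of 0.31 ± 0.06 (adjusted p = 0.00363). Gabarapl1 had 786 to 1096 CPM with a median of 929 in male and 1156 to 1351 CPM with a median of 1209 in female libraries, with -0.33 ± 0.08 (adjusted p = 0.0165). Map1lc3b, Becn1 and Ulk1 did not pass. Of the 12 glycosidases and sulfatases 5 passed (41.7%, against 20.4% of all genes), and these were all higher in male kidneys. Glb1 was at 0.68 ± 0.16 (adjusted p = 0.0115), and Gusb, the β-glucuronidase long studied in mouse kidney for its response to androgens, at 0.47 ± 0.11 (adjusted p = 0.0127). Man2b1 was at 0.31 ± 0.07 (adjusted p = 0.00966), Neu1 at 0.29 ± 0.08 (adjusted p = 0.0207) and Naglu at 0.16 ± 0.05 (adjusted p = 0.0472). Among the enzymes of this role that did not pass, Hexa was at -0.31 ± 0.12 (adjusted p = 0.0859). Ids, Gaa, Gla and Idua also lay below 0, and Sgsh and Manba above it. None of the 7 cathepsins and other peptidases passed, and their values ranged from -0.23 for Ctsb to 0.23 for Ctsh.

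**Figure D5:**
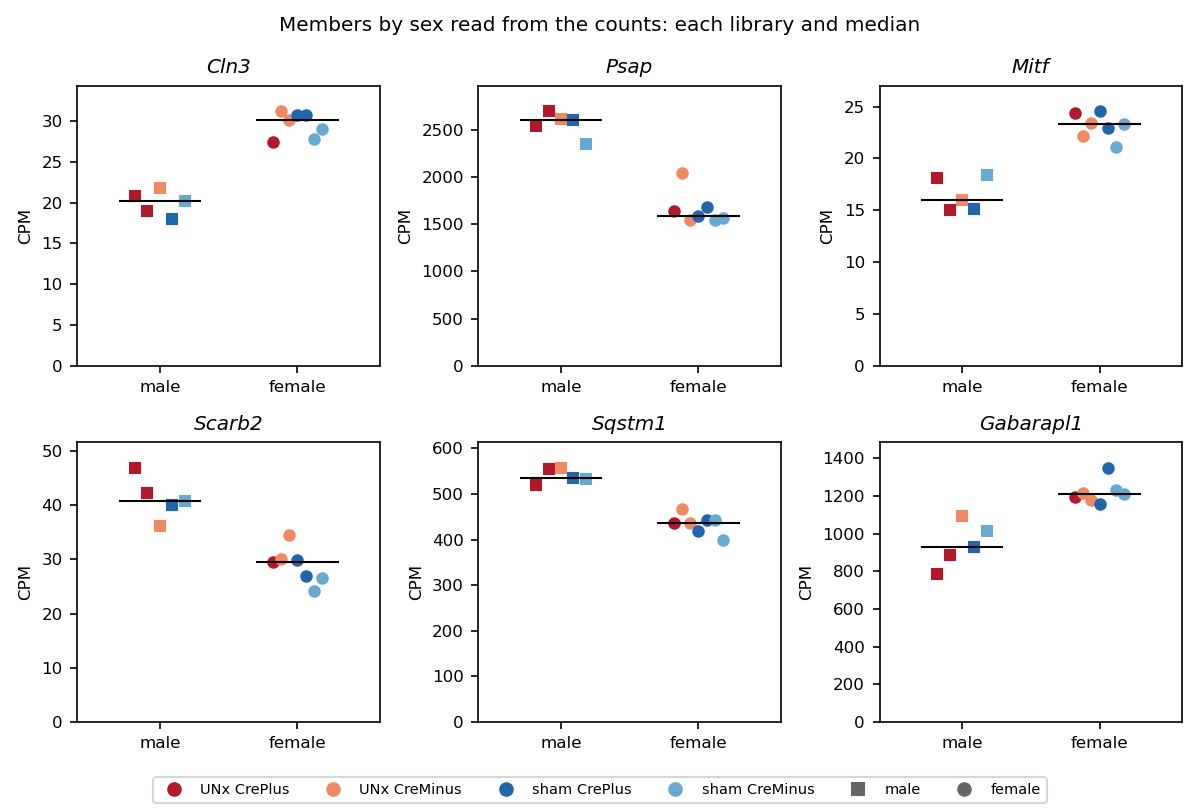
CPM of the 6 members Cln3, Psap, Mitf, Scarb2, Sqstm1 and Gabarapl1 in the 5 male (left) and 7 female (right) libraries as read from the counts, with the median as a line and the colour giving the group. Cln3 lies at 18 to 21.8 CPM in male and 27.4 to 31.2 CPM in female libraries, with no overlap in any of the 6 panels.

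All 13 kept their sign in every alternative fit, but not all stayed past the threshold. Of the 13, 8 were called in each of the 12 fits that left out 1 library, namely Cln3, Psap, Mitf, Scarb2, Sqstm1, Asah1, Npc1 and Man2b1. Glb1 was lost without UNx CreMinus replicate 1, Gusb without sham CrePlus replicate 3, and Gabarapl1 without that library or UNx CrePlus replicate 3. Neu1 was lost without any 1 of 3 male libraries, which were UNx CreMinus replicate 1 and replicate 3 of both sham groups. Naglu was called in 1 of the 12 fits. Fitted within sham libraries alone, with 2 males and 4 females, 6 of 39 members were called, against 9.43% of all genes. Within CreMinus libraries alone, likewise with 2 males, 3 of 39 were called, a smaller share than the 8.25% of all genes. Within UNx libraries alone edgeR called 0 of 40, against 1.86% of all genes. In these last 2 fits the members' share was thus not above that of all genes.

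Markers of kidney cell types moved with sex as well. Proximal tubule markers summed to 27272 to 56264 CPM in male and 19490 to 26685 CPM in female libraries, but the list did not move together. Of its 12 genes 5 were called (41.7%, against 20.4% of all genes), 2 higher and 3 lower in male kidneys. The median log2 fold change of the 12 was -0.19. Kap, an androgen-regulated protein of mouse proximal tubule, was at 2.55 ± 0.30 on the log2 scale (adjusted p = 0.00024). Slc22a6 was at 1.09 ± 0.10 (adjusted p = 3.82e-05), the smallest p of the list. The organic anion transporter Slc22a8 was at -0.91, the inositol oxygenase Miox at -0.62 and the endocytic receptor Cubn at -0.25. Of the podocyte markers 6 of 6 were called, and of the collecting duct markers 5 of 8 (62.5%), all lower in male kidneys. The other collecting duct markers, Avpr2 (-0.46), Aqp2 (-0.59) and Aqp3 (-0.30), were below 0 as well but did not pass. Their part in the members' differences was not tested. With the sex term in the model, edgeR still called 0 of 39 members in each of the 7 comparisons of Cre status and surgery, and the smallest adjusted p was 0.16, for Man2b1 with Cre averaged over operations.

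Other genes of these pathways gave the same counts of 0 with edgeR for Cre status and surgery. Of 20 tested subunits of the V-ATPase, the proton pump that acidifies the lysosome, 6 (30%, against 10.7% of all genes) had an unadjusted p under 0.05 for Cre in UNx kidneys, all with fold changes below 0, and the median was -0.15. The 2 of smallest p were Atp6v1g3 at -0.96 ± 0.37 (adjusted p = 0.415) and Atp6v1d at -0.23 ± 0.09 (adjusted p = 0.42). Atp6v1g3 is a subunit typical of intercalated cells, and the collecting duct markers had a median of -0.13 in that comparison. Atp6v1g3 was also lower in male kidneys (-0.75 ± 0.16, adjusted p = 0.00649 with edgeR). The male libraries of this comparison were UNx CrePlus replicates 1 and 2 and UNx CreMinus replicate 1. The part of sex in the V-ATPase values was not tested. Among the 41 other lysosomal genes, Cd68, Ctss and Laptm5 are also on the macrophage list. Of these 41 genes 6 (14.6%) had an unadjusted p under 0.05, all above 0. They were led by Gnptab at 0.46 ± 0.14 (adjusted p = 0.348), which makes the mannose 6-phosphate tag of lysosomal enzymes, and Arsa, arylsulfatase A, at 0.56 ± 0.18 (adjusted p = 0.367). Of 38 other autophagy genes 3 (7.89%) did, all above 0, led by Uvrag at 0.23 ± 0.09 (adjusted p = 0.404) and Atg4a at 0.48 ± 0.20 (adjusted p = 0.449). Of 26 genes of mTORC1 and lysosomal nutrient sensing 1 (3.85%) did, Lamtor2 at -0.28 ± 0.12 (adjusted p = 0.454), followed by Sesn3 at 0.58 ± 0.30 (adjusted p = 0.527).

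For Cre in sham kidneys, the genes named from each list had adjusted p-values of 0.853 or more with edgeR. They were Atp6v0a2 (0.41 ± 0.15) and Atp6v1g3 (-0.69 ± 0.37) of the V-ATPase, and Acp5 (0.27 ± 0.09), a lysosomal acid phosphatase, of the other lysosomal genes. The autophagy pair was Atg9b (-1.13 ± 0.33) and Atg7 (0.25 ± 0.07), and the mTORC1 pair Rptor (0.27 ± 0.10) and Sesn3 (0.62 ± 0.31). Averaged over operations, the other lysosomal pair was Gnptab (0.44 ± 0.10, adjusted p = 0.108) and Arsa (0.52 ± 0.13, adjusted p = 0.133), and the autophagy pair was the conjugation enzyme Atg7 (0.21 ± 0.05, adjusted p = 0.138) and the protease Atg4a (0.44 ± 0.14, adjusted p = 0.268). Atp6v1g3 (-0.83 ± 0.26), Atp6v0a2 (0.34 ± 0.11), Sesn3 (0.60 ± 0.22) and Lamtor3 (-0.17 ± 0.07) had adjusted p-values of 0.244 to 0.358 in that average. Gnptab and Atg7 had fold changes above 0 with Cre in both operations.

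For UNx against sham in CrePlus kidneys the adjusted p-values of these lists were at least 0.692 with edgeR. The pairs were Atp6v0d1 (0.16 ± 0.10) and Atp6v1c2 (-0.51 ± 0.34), Cln6 (-0.19 ± 0.06) and the macrophage-rich protease Ctss (1.19 ± 0.43), Atg9b (0.89 ± 0.32) and Atg4d (-0.18 ± 0.08), and Rptor (-0.25 ± 0.10) and Ddit4 (0.70 ± 0.35). Ctss is also on the macrophage list, and it is counted in the sums given for that list. In CreMinus kidneys the genes were Atp6v1h (0.13 ± 0.09) and Atp6v0a2 (0.20 ± 0.15), Acp5 (0.25 ± 0.09), Atg16l2 (-0.36 ± 0.19) and Atg12 (0.14 ± 0.10), and Sesn3 (0.41 ± 0.31) and Rraga (0.11 ± 0.08), all with an adjusted p of 1.00. Averaged over Cre status they were Atp6v0d1 (0.12 ± 0.07) and Atp6v1c2 (-0.36 ± 0.24), Cln6 (-0.14 ± 0.05) and Hgsnat (-0.20 ± 0.07), Atg4d (-0.13 ± 0.06) and Atg16l2 (-0.28 ± 0.13), and Ddit4 (0.57 ± 0.25) and Sesn3 (0.39 ± 0.22), with adjusted p-values of at least 0.875. For the interaction they were Atp6v1a (-0.16 ± 0.17) and Atp6v1d (-0.12 ± 0.13), Ctss (1.53 ± 0.61) and Smpd1 (-0.25 ± 0.12), Atg9b (1.12 ± 0.45) and Uvrag (0.18 ± 0.12), and Rptor (-0.29 ± 0.14) and Nprl2 (-0.23 ± 0.13), all with an adjusted p of 1.00.

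Between the sexes, 17 of the 41 other lysosomal genes were called (41.5%, against 20.4% of all genes), 10 higher and 7 lower in male kidneys. The smallest p among the higher ones was that of Galns, a sulfatase of keratan sulfate, at 2.02 ± 0.10 (male over female, adjusted p = 5.41e-07), and among the lower ones that of Laptm4b, a lysosomal membrane protein, at -0.77 ± 0.11 (adjusted p = 0.000887). Of 20 V-ATPase subunits 6 were called (30%), 1 higher and 5 lower. The other lists had 5 of 38 autophagy genes called (13.2%) and 5 of 26 mTORC1 genes (19.2%), both below the share of all genes.

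The authors' deposited tables hold their own comparisons. Of the 40 members, 0 in the authors' deposited tables had an adjusted p under 0.05 in any of the 6 comparisons, and the adjusted p of Gpnmb was missing in each. Of all 24062 genes, 5 to 267 passed in the authors' deposited tables, depending on the comparison. UNx against sham and Cre status in sham kidneys were each given in 2 versions, and 1 version of the latter used 5 libraries. For Cre status in UNx kidneys, Man2b1 had the smallest adjusted p of a member in the authors' deposited table, at 0.49. The smallest adjusted p of a member in the authors' deposited tables was 0.425, for Lamp1 in 1 of their 2 versions of UNx against sham.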

How the data were processed

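RNA-seq of 12 kidneys was analysed from whole-number read counts per gene, as deposited. The authors ran HTSeq, cutadapt 1.11, FastQC 0.11.5 and DESeq2 on builds mm10 and GRCm38, per the submitters' processing notes. The aligner, the annotation and the handling of strand: not given in the sources used here. The SMART-Seq v4 kit named in the labels does not mark the strand. The deposited tables also hold the authors' log2 fold changes, p-values and adjusted p-values. Of 24067 rows, 5 repeated symbols with identical counts were kept once. Groups came from the labels, and replicates were numbered in accession order. The labels do not say how the mice relate, so the p-values reflect only how far these samples differ. Counts were fitted in R 4.3.3 with edgeR 4.0.16 (filterByExpr, TMM, 4 group means, quasi-likelihood test, Benjamini-Hochberg adjustment over 14970 genes, called under 0.05). CPM used TMM-scaled library sizes, and the SE is the fold change over the root of F. DESeq2 1.42.0 was an alternative. The test was tested on simulated data. Exon lengths came from GENCODE for GRCm38. The members and lists were chosen with earlier results of these data known. The text names called members, otherwise the 3 of smallest p in each comparison, 6 set members in every library, and the 2 of smallest p in each other pathway list and comparison, of which some are not reported here. Other members were named after their values were seen. Sex was read from Xist and 4 Y-linked genes.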

Additional observations from a re-analysis of the deposited data

How the results depend on the processing

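The count of members called for Cre status or surgery was 0 under each alternative run but 1. These were DESeq2 size factors, DESeq2, no filter, only the groups compared, a sex term, female libraries, a depth term and leaving out each library. Leaving out 1 library gave 0 to 1 members for Cre averaged over operations, and 0 in the other 6 comparisons. The exception was Gpnmb without sham CrePlus replicate 3 (log2 fold change 3.98, adjusted p = 0.0355). Over the same alternatives the numbers of all genes called ran from 4 to 192 for Cre in UNx kidneys, where the 192 came from DESeq2, and from 0 to 46 for Cre in sham kidneys. They ran from 11 to 391 for Cre averaged over operations, 0 to 11 for UNx against sham with Cre, 0 to 2 without and 0 to 14 averaged. All 390 recomputed values of 21 named log2 fold changes kept their sign, and none passed the threshold. For the sexes, 13 members were called with DESeq2 size factors and 14 with DESeq2, against 20.1% and 23.4% of all genes. With no filter 12 were called (14.4% of all genes), and with a depth term 10 (13.5%). Leaving out 1 library gave 9 to 14 members, against 9.63 to 21.8% of all genes. In sham, CreMinus and UNx libraries alone 6, 3 and 0 were called, against 9.43%, 8.25% and 1.86% of all genes. The fit with a depth term nearly repeats the one without UNx CreMinus replicate 1 and is not a separate check. These alternatives for sex were chosen after seeing the data. The fits within 1 group pair or operation hold fewer samples. No paired analysis was possible because the labels give no replicate numbers. Depth limits Gpnmb, at 0 to 49 counts a library. In simulated counts for Cre in UNx kidneys, over 14841 genes, 8.96% of genes changed by 0.5 on the log2 scale were called, 71.6% of those changed by 1 and 93.9% of those changed by 2. The changed genes were drawn at random from all but the lowest genes and were not the members. The simulated counts held no difference by sex, so these shares do not give the rate for the members.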
